A study of Mus musculus with 33 samples.

Results

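The S phase and mitosis genes are 42 genes whose products copy DNA, order the cell cycle or divide the chromosomes. Their RNA was measured in livers and liver tumours of 33 mouse samples, 1 Illumina MouseWG-6 v2.0 bead array per sample. The brightest probe, by its mean over the arrays, stood for each gene. Of the 42 genes, 40 had a probe among the 19057 genes with one, since no probe is listed for Ccnb1 or Mki67. A probe above the estimated background on at least 3 arrays was found for 36 of the members, among 13978 genes tested in all. The other 4 with a probe were not tested. Bub1 and Kif20a were above background on 0 of the 33 arrays and Ccnb2 and Cenpe on 1 array each.

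The samples fall into 7 groups. Sav1 -/- mice gave hepatocellular carcinoma (HCC, the main cancer of hepatocytes) in 11 samples and surrounding liver in 7, and Sav1 flox mice gave normal liver in 3. Mst1/2 -/- mice, which lack both Mst1 and Mst2, gave 4 tumours and 3 surrounding livers, and Mst1/2 flox mice gave 3 normal livers. Normal liver of Wt mice made up the other 2 samples. A floxed allele carries recombinase sites and keeps its function until it is cut. The Cre that deleted the genes, the ages of the mice and whether samples of a group came from separate animals are not given in the labels, so the p-values speak only of spread among the deposited samples, and some of that may be technical. The series was deposited as a profile of liver cancer in these knockouts of Hippo pathway genes, and the comparisons below ask which members of the cell division programme differed between tumour, surrounding and normal liver.

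Adult hepatocytes are mostly quiescent and re-enter the cell cycle after injury or in cancer. In G1, cyclin D and cyclin E kinases release E2F factors, which switch on the genes for licensing and copying DNA. Later, in G2 and M, a second wave of transcription through the DREAM and MuvB-FOXM1 complexes switches on the genes for mitotic entry, the spindle and cytokinesis. The Hippo kinases MST1 and MST2 with their adaptor SAV1 restrain the coactivators YAP and TAZ, which are known to drive liver cell growth.

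The 2 waves are read through short promoter elements. The E2F site serves mainly the S phase genes, and the cell cycle homology region (CHR) together with CCAAT boxes serves the mitotic genes. RefSeq promoter windows of GRCm38.p6, from 250 bases before to 50 bases after a gene's start, were at hand for 34 of the 42 members, in 36 windows because Mcm7 and Prc1 have more than 1. The words TTTGAA and TTCGAA (CHR), CCAAT, and TTTCCCGC, TTTCGCGC, TTTGCCGC and TTTGGCGC (E2F) were searched on both strands. A CHR word stood in 17 of the 22 windows of mitotic members (77.3%) and in 2 of the 14 windows of S phase members (14.3%), against 19.2% of all 32851 windows. An E2F word stood in 1 of the 22 mitotic windows (4.55%) and 6 of the 14 S phase windows (42.9%), against 2.26% of all windows. CCAAT stood in 19 mitotic windows (86.4%) and 10 S phase windows (71.4%), against 37.4% of all. These are letter matches and not measured binding. The windows below show both layouts in members described further on, with every match in capitals on the strand of the gene, so that ATTGG is CCAAT and TTCAAA is TTTGAA on the opposite strand. Adjacent matches can overlap, as do the E2F words of Mcm5 and Mcm6. In Mcm5 and Mcm6, which encode subunits of the replicative helicase, the capitals are E2F words and CCAAT:
Mcm5 (chr8:75109259-75109558, plus strand): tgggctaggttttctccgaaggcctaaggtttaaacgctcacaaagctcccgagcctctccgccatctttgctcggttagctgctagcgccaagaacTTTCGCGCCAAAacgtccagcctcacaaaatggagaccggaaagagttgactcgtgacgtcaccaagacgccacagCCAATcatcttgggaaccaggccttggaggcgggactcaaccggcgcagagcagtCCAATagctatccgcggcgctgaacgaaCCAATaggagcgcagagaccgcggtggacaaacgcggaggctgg
Mcm6 (chr1:128359656-128359955, minus strand): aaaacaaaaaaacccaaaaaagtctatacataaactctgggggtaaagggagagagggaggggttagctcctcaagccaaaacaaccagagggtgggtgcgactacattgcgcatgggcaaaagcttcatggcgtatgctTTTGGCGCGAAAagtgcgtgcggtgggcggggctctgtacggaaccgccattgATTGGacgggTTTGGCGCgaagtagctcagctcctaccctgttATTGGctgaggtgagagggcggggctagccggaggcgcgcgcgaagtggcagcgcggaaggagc
In Cdc20, Prc1 and Top2a, which act in mitosis, the capitals are CHR words and CCAAT, and Cdk1 holds words of all 3 kinds:
Cdk1 (chr10:69352863-69353162, minus strand): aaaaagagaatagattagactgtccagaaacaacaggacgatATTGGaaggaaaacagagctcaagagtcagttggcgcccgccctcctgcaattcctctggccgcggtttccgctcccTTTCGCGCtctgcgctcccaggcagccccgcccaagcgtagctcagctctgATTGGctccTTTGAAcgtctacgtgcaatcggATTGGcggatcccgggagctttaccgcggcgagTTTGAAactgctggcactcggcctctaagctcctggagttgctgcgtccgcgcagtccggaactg
Cdc20 (chr4:118437294-118437593, minus strand): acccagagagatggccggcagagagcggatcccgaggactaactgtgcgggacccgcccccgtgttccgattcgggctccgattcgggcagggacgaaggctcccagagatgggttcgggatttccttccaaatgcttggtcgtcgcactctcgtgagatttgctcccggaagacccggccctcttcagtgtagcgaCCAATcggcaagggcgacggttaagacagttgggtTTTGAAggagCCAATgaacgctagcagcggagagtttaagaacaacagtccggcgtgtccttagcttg
Prc1 (chr7:80294201-80294500, plus strand): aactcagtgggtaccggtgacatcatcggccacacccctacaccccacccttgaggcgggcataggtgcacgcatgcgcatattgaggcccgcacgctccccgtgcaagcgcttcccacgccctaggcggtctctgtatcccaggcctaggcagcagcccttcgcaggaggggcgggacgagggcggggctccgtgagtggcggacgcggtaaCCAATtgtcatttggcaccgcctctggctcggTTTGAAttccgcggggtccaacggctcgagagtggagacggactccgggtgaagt
Top2a (chr11:99024140-99024439, minus strand): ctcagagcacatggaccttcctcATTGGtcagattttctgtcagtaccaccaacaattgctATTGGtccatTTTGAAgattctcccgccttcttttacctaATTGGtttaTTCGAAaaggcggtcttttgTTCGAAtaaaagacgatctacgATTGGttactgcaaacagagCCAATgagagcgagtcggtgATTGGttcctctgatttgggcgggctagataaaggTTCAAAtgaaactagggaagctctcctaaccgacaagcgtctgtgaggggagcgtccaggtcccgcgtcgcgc
The windows of Nusap1 and Birc5, 2 of the members with the largest differences below, held none of these words.

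Median signals ran from 78.5 to 112 units per array and between 35.1% and 52.3% of the 45281 probes lay above the background estimated for their array. The Sav1 flox livers had the lowest shares of all arrays (37.4%, 39.0% and 35.1%). Levels are log2 values after background correction and quantile normalization, and differences are log2 differences ± standard error (SE) from limma. A gene is said to have risen or fallen where its limma p, adjusted over all 13978 genes by Benjamini-Hochberg, was under 0.05. The number of arrays limits the precision. All 6 hepatocyte markers (among them Apoa1 and Ttr) were above background on at least 1 array in each group, except for 1 gene in the Sav1 flox livers (Fgb) and 1 in the Mst1/2 tumours. The Sav1 probe stood at 9.05 ± 0.48 (SD, n = 11) in Sav1 tumours and 9.31 ± 0.33 (n = 3) in Sav1 flox livers. Whether this probe lies within the deleted exons is unknown here, so its level checks nothing about the knockout. After the data were seen, the arrays were clustered by the signals of 12413 probes above background on no array and cut into 3 sets. That number was chosen, and no label names the sets. The mean correlation within a set was 0.15 in A, 0.014 in B and 0.021 in C. With arrays of the other sets it was -0.097, -0.079 and -0.040, so B and C hold together only weakly. Set A holds Sav1 tumours 1 to 3, Sav1 surrounding livers 1 to 3 and the 3 Sav1 flox livers. Set C holds Sav1 tumours 4 and 5 and surrounding livers 4 to 7, and set B the other 18 arrays. No Sav1 flox or surrounding liver lies in set B. With the set as a block, the Sav1 tumours of set B therefore add nothing to the differences among Sav1 groups. The surrounding livers of the lines share no set, and neither do their flox livers. In bulk tissue, more dividing cells and more RNA per dividing cell cannot be told apart.

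Members of every role rose in Sav1 tumours over Sav1 flox livers. Of the 36 tested, 28 rose, 2 fell and 6 did not pass. Over all genes tested, 17.3% rose and 16% fell. The median difference of the members was 0.84, or 0.63 with the genes that were above background on no Sav1 flox liver set at their lower bound, against 0.05 for all genes. In Mst1/2 tumours against Mst1/2 flox livers 20 members rose and 0 fell, where 11.4% of all genes rose and 9.04% fell, with 26 members at an unadjusted p under 0.05. The median difference there was 0.71, against -0.0016 for all genes. Of the 28 members that rose in Sav1 tumours, 19 (67.9%) also rose in Mst1/2 tumours, and they were 95% of the 20 that rose there. The exception was Cdk4.

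**Figure D1:**
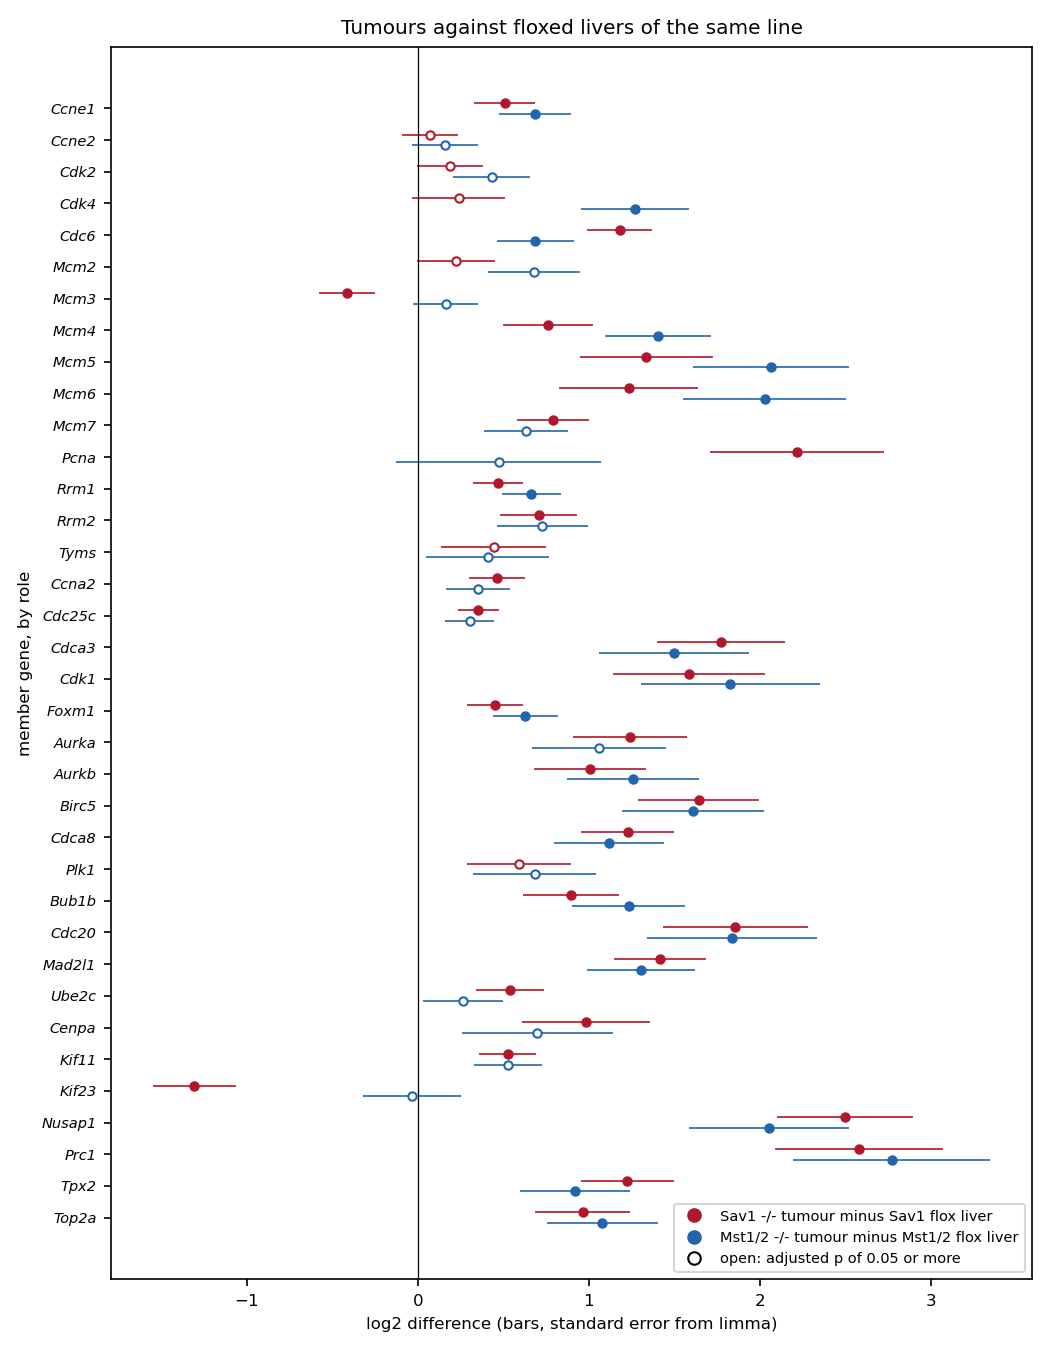
Log2 difference of each of the 36 tested members, with its SE, in Sav1 -/- tumours minus Sav1 flox livers (red) and in Mst1/2 -/- tumours minus Mst1/2 flox livers (blue); filled points passed limma at an adjusted p of 0.05. Prc1 lies farthest to the right in both lines (2.58 and 2.77), and Kif23 and Mcm3 are the filled points left of 0.

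The counts rest in part on single control livers. Without Sav1 flox liver 1 or without Sav1 flox liver 3, 18 members passed in the Sav1 line in place of 30, and within set A alone 19 passed, 18 of them up. Without Mst1/2 flox liver 6, 10 members rose in the Mst1/2 line, and without Mst1/2 tumour 2, 12 did. How many of all genes passed in these smaller fits is not given here. The Mst1/2 flox livers also carried a female pattern. Xist, the X-inactivation transcript, stood at 6.19 ± 0.09 (SD, n = 4) in Mst1/2 tumours and 10.91 ± 0.33 (n = 3) in Mst1/2 flox livers, and the Y-linked gene Eif2s3y at 10.99 ± 0.26 in Mst1/2 tumours and 6.10 ± 0.06 in Mst1/2 flox livers. In the comparisons of Mst1/2 -/- samples with Mst1/2 flox livers, sex and knockout therefore cannot be told apart, nor sex and line between the flox livers.

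The G1/S cyclins and cyclin-dependent kinases moved little in Sav1 tumours. Of 4 tested, 1 rose, with a median difference of 0.21. Ccne1, cyclin E1, which activates CDK2 at the start of S phase, was above background on no Sav1 flox liver. Its lowest, median and highest levels were 6.56, 6.77 and 7.34 in Sav1 tumours, against 6.04, 6.61 and 6.26 in the Sav1 flox livers. The groups overlapped by 1 flox liver, and the rise was at least 1.06-fold (adjusted p = 0.0304). The Mst1/2 tumours had Ccne1 levels of 7.19, 8.02, 6.97 and 6.73, against 6.52, 6.55 and 6.55 in Mst1/2 flox livers, a rise of 0.69 ± 0.21 (adjusted p = 0.0210). The Wt livers stood at 7.25 and 7.15, above most of the tumours.

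Cdk4, the cyclin D kinase of G1, gave the widest spread in Sav1 tumours among the G1/S cyclins and kinases tested. Its level was 8.23, 9.48 and 10.22 (lowest, median, highest) in Sav1 tumours, against 9.48, 9.09 and 9.15 in Sav1 flox livers, so that the tumours lay on both sides of their controls (0.24 ± 0.27, adjusted p = 0.520). The level in Mst1/2 tumours was 10.32, 10.63, 10.06 and 10.21, against 8.99, 9.13 and 8.98 in Mst1/2 flox livers. All 4 of those tumours were above all 3 flox livers, a 2.41-fold rise (1.27 ± 0.32, adjusted p = 0.00504). The difference between the lines' differences was -1.03 ± 0.42 and did not pass (adjusted p = 0.211). A dimmer Cdk4 probe annotated to the same transcript gave 0.79 ± 0.22 in Sav1 tumours minus flox livers and 0.62 ± 0.26 in Mst1/2 tumours minus flox livers. Cdk2 (0.19 ± 0.19) and Ccne2 (0.07 ± 0.16) did not pass in Sav1 tumours, nor in Mst1/2 tumours (0.43 ± 0.23 and 0.16 ± 0.19).

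Of the 8 licensing and replication genes, 6 rose in Sav1 tumours, 1 fell and 1 did not pass, and in Mst1/2 tumours 4 rose and 0 fell, with 6 at an unadjusted p under 0.05. The helicase subunits Mcm4, Mcm5, Mcm6 and Mcm7, which load onto origins before S phase, rose by 0.76 to 1.34 in Sav1 tumours. For Mcm6 this is the brightest probe, and its probes did not all share that sign. Mcm5 was at 8.11, 9.33 and 10.47 (lowest, median, highest) in Sav1 tumours, against 7.68, 8.22 and 8.00 in Sav1 flox livers. The weakest tumour lay below the brightest flox liver, and the rise was 2.53-fold (1.34 ± 0.39, adjusted p = 0.00959). Mcm5 in Mst1/2 tumours stood at 9.55, 10.58, 9.32 and 9.65, against 7.88, 8.53 and 6.71 in Mst1/2 flox livers, with no overlap and a 4.19-fold rise (2.07 ± 0.46, adjusted p = 0.00189). Mcm6 rose to a similar extent in Mst1/2 tumours (2.03 ± 0.48), and Mcm4 rose by 1.41 ± 0.31.

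Pcna, the sliding clamp that holds DNA polymerase on its template, rose in Sav1 tumours with levels that also differed between the array sets. The level was 8.08, 9.60 and 11.64 (lowest, median, highest) in Sav1 tumours, against 7.81, 7.29 and 7.12 in Sav1 flox livers, a 4.65-fold rise with no overlap (2.22 ± 0.51, adjusted p = 0.00156). The tumours of set A lay below those of sets B and C, which overlapped each other. Tumours 1 to 3, in set A with the flox livers, stood at 8.08, 8.35 and 8.50, and the other 8 tumours at 9.32 or above. The Sav1 surrounding livers split the same way, with 7.95, 7.71 and 8.00 in livers 1 to 3 and 9.60, 9.69, 9.23 and 9.53 in livers 4 to 7. Within set A the rise in tumours over flox livers was 0.91 ± 0.21 (limma, adjusted p = 0.0377), and with the set as a block it was 1.10 ± 0.34 (adjusted p = 0.0231). In the same fit within set A, Mcm5 rose by 1.92 ± 0.27 (adjusted p = 0.00888) and Cdc6 by 1.27 ± 0.31 (adjusted p = 0.0446). In the Mst1/2 line, all in set B, Pcna stood at 8.46, 9.06, 8.54 and 8.17 in tumours, against 8.06, 8.14 and 8.05 in Mst1/2 flox livers (0.47 ± 0.60, adjusted p = 0.627).

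Cdc6, which loads the helicase onto origins, was above background on no flox liver of either line and rose at least 1.67-fold in Sav1 tumours (adjusted p = 4.24e-05) and at least 1.55-fold in Mst1/2 tumours (adjusted p = 0.0292). Mcm3, another helicase subunit, was the replication gene that fell in Sav1 tumours. It stood at 6.17, 6.49 and 7.07 (lowest, median, highest) in Sav1 tumours, against 7.00, 6.90 and 7.10 in Sav1 flox livers. These levels lie close to background, with 8 of the 11 tumours above it, and the fall of -0.41 ± 0.16 was near the threshold (adjusted p = 0.0497). Within set A it was -0.14 ± 0.15 and did not pass (adjusted p = 0.592). Mcm2 did not pass in Sav1 tumours over flox livers (0.22 ± 0.23).

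Of the 3 genes of nucleotide synthesis, 2 rose in Sav1 tumours and 1 in Mst1/2 tumours. Rrm1 and Rrm2 are the large and small subunits of ribonucleotide reductase, which makes deoxynucleotides. Rrm1 stood at 8.27, 8.55 and 9.05 (lowest, median, highest) in Sav1 tumours, against 8.18, 8.01 and 8.15 in Sav1 flox livers, with no overlap (0.47 ± 0.15, adjusted p = 0.0154). The Mst1/2 tumours had Rrm1 levels of 8.51, 8.89, 8.40 and 8.59, against 7.63, 8.31 and 7.86 in Mst1/2 flox livers, again with no overlap (0.67 ± 0.17, adjusted p = 0.00688). Rrm2 was above background on no Sav1 flox liver, at 6.63, 6.39 and 6.40, against 6.52, 7.15 and 7.70 (lowest, median, highest) in Sav1 tumours, a rise of at least 1.37-fold (adjusted p = 0.0176). For Rrm2, Mst1/2 tumours stood at 7.34, 8.04, 7.13 and 6.69, against 6.75, 6.59 and 6.37 in Mst1/2 flox livers, and did not pass (0.73 ± 0.27, adjusted p = 0.0504). Tyms, thymidylate synthase, did not pass in either line (0.44 ± 0.31 in Sav1 tumours and 0.41 ± 0.36 in Mst1/2 tumours).

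All 5 genes of mitotic entry that were tested rose in Sav1 tumours, and 3 of them in Mst1/2 tumours. Cdk1 is the kinase that starts mitosis. It stood at 6.71, 8.22 and 10.26 (lowest, median, highest) in Sav1 tumours, against 6.62, 6.71 and 6.74 in Sav1 flox livers. The flox livers were tightly grouped and the tumours spread over more than 3 log2 units, with the lowest tumour level with the controls and a mean rise of 3.00-fold (1.59 ± 0.45, adjusted p = 0.00755). Cdk1 in Mst1/2 tumours stood at 8.29, 9.26, 8.35 and 8.22, against 6.82, 6.95 and 6.33 in Mst1/2 flox livers, with no overlap (1.83 ± 0.52, adjusted p = 0.0137). Cdca3, part of the ubiquitin ligase that removes the mitotic inhibitor WEE1, stood at 7.61, 8.87 and 10.74 in Sav1 tumours (lowest, median, highest), against 6.86, 7.22 and 7.42 in Sav1 flox livers. All 11 tumours lay above all flox livers, a 3.42-fold rise (1.78 ± 0.38, adjusted p = 0.000708). The Mst1/2 tumours stood at 8.91, 9.45, 9.13 and 8.73, against 7.60, 7.63 and 7.44 in Mst1/2 flox livers (a 2.83-fold rise, adjusted p = 0.0161).

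The other mitotic entry genes were dim. Foxm1, the transcription factor of the G2 and M genes, rose by 0.45 ± 0.16 in Sav1 tumours (adjusted p = 0.0320) and 0.63 ± 0.19 in Mst1/2 tumours (adjusted p = 0.0192). Ccna2 (cyclin A2) and Cdc25c, the phosphatase that activates CDK1, were above background on no Sav1 flox liver and on 6 and 8 of the 11 Sav1 tumours. Both passed (adjusted p = 0.0277 and 0.0247) with means of 6.51 and 6.51 in Sav1 tumours, against 6.04 and 6.15 in Sav1 flox livers, too close to background for a fold.

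Of the mitotic kinases and the chromosomal passenger complex, 4 of 5 rose in Sav1 tumours and 3 of 5 in Mst1/2 tumours. Birc5, survivin, the passenger protein that brings Aurora B to the centromere, was above background on no Sav1 flox liver. Its levels were 6.85, 8.08 and 9.58 (lowest, median, highest) in Sav1 tumours, against 6.46, 6.45 and 6.55 in Sav1 flox livers. The groups did not overlap and the rise was at least 2.65-fold (adjusted p = 0.000837). The Mst1/2 tumours had Birc5 levels of 8.23, 9.12, 8.20 and 8.19, against 6.88, 7.12 and 6.47 in Mst1/2 flox livers (1.61 ± 0.42, adjusted p = 0.00649). Aurka, the Aurora kinase of the spindle poles, stood at 6.81, 8.30 and 9.13 in Sav1 tumours (lowest, median, highest), against 6.55, 6.97 and 7.03 in Sav1 flox livers (1.24 ± 0.33, adjusted p = 0.00543). For Aurka, Mst1/2 tumours stood at 7.53, 8.11, 7.53 and 7.44, against 6.57, 6.56 and 6.64 in Mst1/2 flox livers. The 4 tumours were all above the flox livers, and the difference did not pass (1.06 ± 0.39, adjusted p = 0.0536).

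Aurkb, the kinase of the passenger complex, rose at least 1.55-fold in Sav1 tumours (adjusted p = 0.0197) and at least 2.28-fold in Mst1/2 tumours (adjusted p = 0.0208), being above background on no flox liver of either line. Cdca8, borealin of the same complex, rose at least 1.82-fold in Sav1 tumours (adjusted p = 0.00115) and by 1.12 ± 0.32 in Mst1/2 tumours (adjusted p = 0.0138). Plk1, polo-like kinase, did not pass in either line. Its mean was 6.71 in Sav1 tumours and 6.12 in Sav1 flox livers, where it was above background on 7 of 11 and 0 of 3 arrays (adjusted p = 0.136).

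All 4 tested genes of the spindle checkpoint and the anaphase-promoting complex (APC) rose in Sav1 tumours and 3 of them in Mst1/2 tumours. Cdc20, which activates the APC once chromosomes are attached, stood at 7.08, 8.33 and 10.04 in Sav1 tumours (lowest, median, highest), against 6.82, 6.58 and 6.52 in Sav1 flox livers. The groups did not overlap and the rise was 3.63-fold (1.86 ± 0.42, adjusted p = 0.00142). Cdc20 in Mst1/2 tumours stood at 8.18, 8.94, 9.08 and 8.90, against 7.14, 7.30 and 6.38 in Mst1/2 flox livers (1.84 ± 0.50, adjusted p = 0.00914). Mad2l1, the checkpoint protein that holds CDC20 inactive, stood at 8.01, 8.84 and 9.93 in Sav1 tumours (lowest, median, highest), against 7.93, 7.65 and 7.03 in Sav1 flox livers, with no overlap (1.42 ± 0.27, adjusted p = 0.000249). The Mst1/2 tumours had Mad2l1 levels of 9.05, 9.28, 9.02 and 8.45, against 7.66, 7.89 and 7.38 in Mst1/2 flox livers (1.31 ± 0.32, adjusted p = 0.00409). Bub1b, another checkpoint protein, rose by 0.90 ± 0.28 in Sav1 tumours and 1.23 ± 0.33 in Mst1/2 tumours. Ube2c, the ubiquitin-conjugating enzyme of the APC, passed in Sav1 tumours (adjusted p = 0.0379) with means of 6.68 in tumours and 6.14 in Sav1 flox livers, too dim for a fold.

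The kinetochore, spindle and cytokinesis genes held the largest differences of all members. Of 6 tested, 5 rose and 1 fell in Sav1 tumours, and 3 rose in Mst1/2 tumours with 0 falling (4 at an unadjusted p under 0.05). Prc1, which bundles the microtubules of the central spindle, stood at 7.62, 9.50 and 11.08 in Sav1 tumours (lowest, median, highest), against 6.95, 7.04 and 6.91 in Sav1 flox livers. All tumours were above all flox livers, a 5.98-fold rise (2.58 ± 0.49, adjusted p = 0.000251). For Prc1, Mst1/2 tumours stood at 9.62, 10.58, 9.97 and 9.56, against 7.55, 7.53 and 6.40 in Mst1/2 flox livers, a 6.83-fold rise with no overlap (2.77 ± 0.58, adjusted p = 0.00111). Nusap1, a spindle microtubule stabilizer, stood at 7.50, 9.11 and 10.12 in Sav1 tumours (lowest, median, highest), against 6.61, 6.37 and 6.53 in Sav1 flox livers, where it was above background on no array. The rise was at least 4.84-fold (adjusted p = 3.66e-05). Nusap1 in Mst1/2 tumours stood at 8.33, 9.31, 8.78 and 8.56, against 6.96, 6.93 and 6.19 in Mst1/2 flox livers (2.05 ± 0.47, adjusted p = 0.00249).

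Tpx2, which activates Aurora A on the spindle, rose at least 1.54-fold in Sav1 tumours (adjusted p = 0.00112) and at least 1.62-fold in Mst1/2 tumours (adjusted p = 0.0400). Cenpa, the histone of the centromere, rose by 0.98 ± 0.38 in Sav1 tumours (adjusted p = 0.0438) and did not pass in Mst1/2 tumours (0.70 ± 0.44). Kif11, the motor that pushes spindle poles apart, passed in Sav1 tumours (adjusted p = 0.0178). Its means were 6.70 in tumours and 6.18 in Sav1 flox livers, where it was above background on no array, too dim for a fold. Top2a, which untangles sister chromatids and is a common marker of dividing cells, stood at 6.41, 7.15 and 8.28 in Sav1 tumours (lowest, median, highest), against 6.14, 6.40 and 6.04 in Sav1 flox livers. It was above background on all tumours and no Sav1 flox liver, and rose at least 1.35-fold (adjusted p = 0.00864). The Mst1/2 tumours had Top2a levels of 7.06, 8.29, 7.41 and 7.62, against 6.55, 6.71 and 6.28 in Mst1/2 flox livers (1.08 ± 0.32, adjusted p = 0.0187).

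Kif23, a kinesin of the central spindle that acts with PRC1 in cytokinesis, went against the other mitotic members by its brightest probe. That probe stood at 10.02, 10.74 and 11.51 in Sav1 tumours (lowest, median, highest), against 12.22, 11.76 and 12.13 in Sav1 flox livers. All 11 tumours lay below all flox livers (-1.31 ± 0.24, adjusted p = 0.000194). In the Mst1/2 line it stood at 12.35, 12.87, 11.66 and 11.98 in tumours, against 12.31, 12.25 and 12.19 in flox livers (-0.03 ± 0.28, adjusted p = 0.952). The Wt livers stood at 12.27 and 12.38. This probe is annotated to a clone sequence, and the other 2 Kif23 probes to the reference transcript. The first of these had a mean of 8.71 ± 0.94 in Sav1 tumours and 6.80 in Sav1 flox livers (1.91 ± 0.40), and the second of 7.07 ± 0.46 in Sav1 tumours and 6.29 in Sav1 flox livers (0.78 ± 0.22). In Mst1/2 tumours minus flox livers the same probes gave 2.32 ± 0.47 and 0.85 ± 0.26. The 3 probes disagree in sign in the Sav1 line, so the direction of Kif23 depends on the probe. With the mean of its probes it was 0.46 ± 0.21 in Sav1 tumours minus flox livers (adjusted p = 0.0943). Of the 20 members with several kept probes, 16 had all probes of one sign in this comparison, and Cdk2, Kif23, Mcm6 and Tyms did not.

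**Figure D2:**
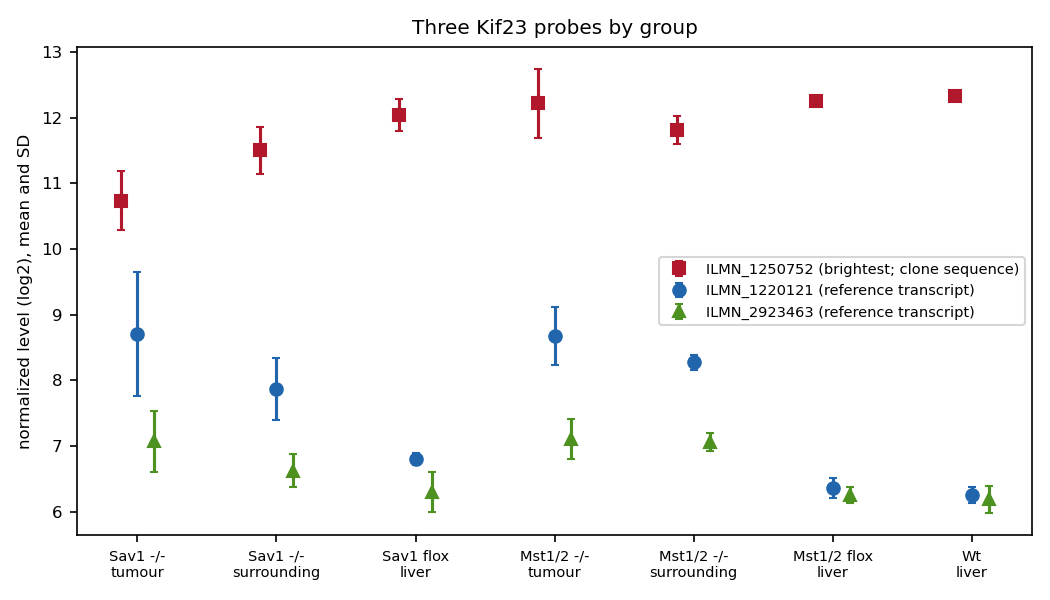
Mean and SD of the log2 level of 3 Kif23 probes in the 7 groups. The brightest probe (squares) stood near 12 in flox and Wt livers and at 10.73 in Sav1 tumours, while both probes on the reference transcript were higher in tumours than in flox livers of the same line.

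In 14 of the 36 members all 11 Sav1 tumours lay above all 3 Sav1 flox livers, and in 1 (Kif23) all lay below, where 8.38% of all genes lay above and 6.65% below without overlap. In the Mst1/2 line 30 members lay above without overlap and 0 below, where the shares of all genes were 22.8% and 20.8% with 4 and 3 arrays.

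Few members passed between surrounding liver of Sav1 -/- mice and Sav1 flox liver, the same 3 controls as for the tumours. Of the 36 members, 1 rose and 1 fell, where 5.09% of all genes rose and 5.5% fell, with 5 members at an unadjusted p under 0.05. Whether or not they passed, 29 were higher. Cdc6 rose at least 1.25-fold, with means of 7.05 in surrounding and 6.28 in flox livers (adjusted p = 0.0162), and Mcm3 fell by 0.54 ± 0.17 (adjusted p = 0.0405). Within array set A neither passed, and both calls were lost without Sav1 flox liver 2 or 3. Without Sav1 flox liver 1 or surrounding liver 5, 6 or 7, 1 of them was left. Pcna differed by 1.41 ± 0.54 (adjusted p = 0.0868), but by 0.48 ± 0.21 within set A (adjusted p = 0.338) and 0.28 ± 0.34 with the set as a block (adjusted p = 0.707). Prc1 stood at 7.17, 8.03 and 9.37 (lowest, median, highest) in surrounding livers, against 6.95, 7.04 and 6.91 in flox livers (1.01 ± 0.52, adjusted p = 0.201, and 1.23 ± 0.55 within set A, adjusted p = 0.352). In the same comparison 5 of 6 macrophage, 3 of 6 T and NK cell and all 3 neutrophil markers tested rose. The neutrophil markers' summed signal was 2691 to 10252 units in Sav1 surrounding livers and 249.99 to 503 in Sav1 flox livers, and what share these cells had in the members' levels was not tested.

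Sav1 tumours were set against surrounding liver of the same genotype to ask what differs in the tumour beyond the knockout. Of the 36 members 17 rose and 1 fell, where 7.04% of all genes rose and 5.84% fell, and 35 were higher. The median difference was 0.61, against 0.02 for all genes. Helicase subunits made up 5 of the rises, Mcm2 (0.65 ± 0.17), Mcm4, Mcm5, Mcm6 and Mcm7 (0.83 ± 0.16, adjusted p = 0.000568). Mcm2, which did not pass against flox liver, stood lower in surrounding liver (mean 7.00) than in flox liver (7.42). Of the mitotic members, Prc1 (1.57 ± 0.37, adjusted p = 0.00422), Nusap1 (1.49 ± 0.30, adjusted p = 0.00101), Cdca3 (1.21 ± 0.28), Cdk1 (1.08 ± 0.33, adjusted p = 0.0286), Aurka (1.05 ± 0.25), Mad2l1 (1.04 ± 0.20, adjusted p = 0.000736) and Tpx2 (0.98 ± 0.20) rose with the largest differences. With the array set as a block Prc1 rose by 2.36 ± 0.36 and Cdk1 by 1.95 ± 0.30. Set B holds no Sav1 surrounding liver, so differences with the block rest on the Sav1 tumours of sets A and C alone. None of the G1/S genes passed (0 of 4 in limma, 0.22 to 0.36), nor did Pcna (0.81 ± 0.38, adjusted p = 0.167), which passed with the array set as a block (0.82 ± 0.26, adjusted p = 0.0450). Kif23 by its brightest probe fell (-0.77 ± 0.18, adjusted p = 0.00450), a call lost within set A (-0.86 ± 0.21, adjusted p = 0.151) and set C (-0.87 ± 0.24, adjusted p = 0.0907). Cdc20 rose near the threshold (0.94 ± 0.31, adjusted p = 0.0450).

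No member separated the groups without overlap in this comparison (0 higher and 0 lower, where 0.343% and 0.615% of all genes did). For Nusap1 the tumours ran from 7.50 to 10.12 and the surrounding livers from 6.99 to 8.71, with surrounding liver 2 at the top of its group. The count was 30 members with the array set as a block (29 up, 1 down), 1 within set A (3 arrays against 3) and 19 within set C (2 tumours against 4 surrounding livers). The differences with the block rest on the tumours of sets A and C and not on those of set B, so that count does not speak for all the tumours. How many of all genes passed in these fits is not given here, so the counts are not read as a result about the members.

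Single Sav1 tumours differed widely. Tumours 2, 4 and 5 had 33, 29 and 32 of the 36 members above the highest Sav1 flox liver and held the highest level of 9, 13 and 9 members. Tumours 6 and 8 had 21 and 20 members above it and held the lowest level of 11 and 13. Of all genes tested, 34.7%, 38.8% and 39.8% lay above the highest Sav1 flox liver in tumours 2, 4 and 5, and 38.5% and 36.7% in tumours 6 and 8. The median difference of the 28 risen members from the mean of the Sav1 flox livers was 1.65, 1.63 and 1.63 in tumours 2, 4 and 5, against 0.33 and 0.26 in tumours 6 and 8. These 28 were chosen from the same tumours, so the medians order the arrays and test nothing. Tumours 6 and 8 thus overlapped the surrounding livers, which ran from 0.13 to 0.79. Surrounding liver 2 was the highest of these at 0.79 and had 23 members above the flox livers, where 31.5% of all genes were. Its macrophage markers summed to 43157 units, the highest among Sav1 surrounding livers (12606 to 43157), and 18516 and 23895 units were found in tumours 6 and 8. Other arrays went the other way. Tumours 1 and 3 had the lowest sums of the Sav1 tumours (9098 and 7900 units) with medians of 1.26 and 0.96. Surrounding livers 4 and 5 had 35984 and 37743 units with medians of 0.40 and 0.38. The part of these cells in the members' levels was not tested.

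**Figure D3:**
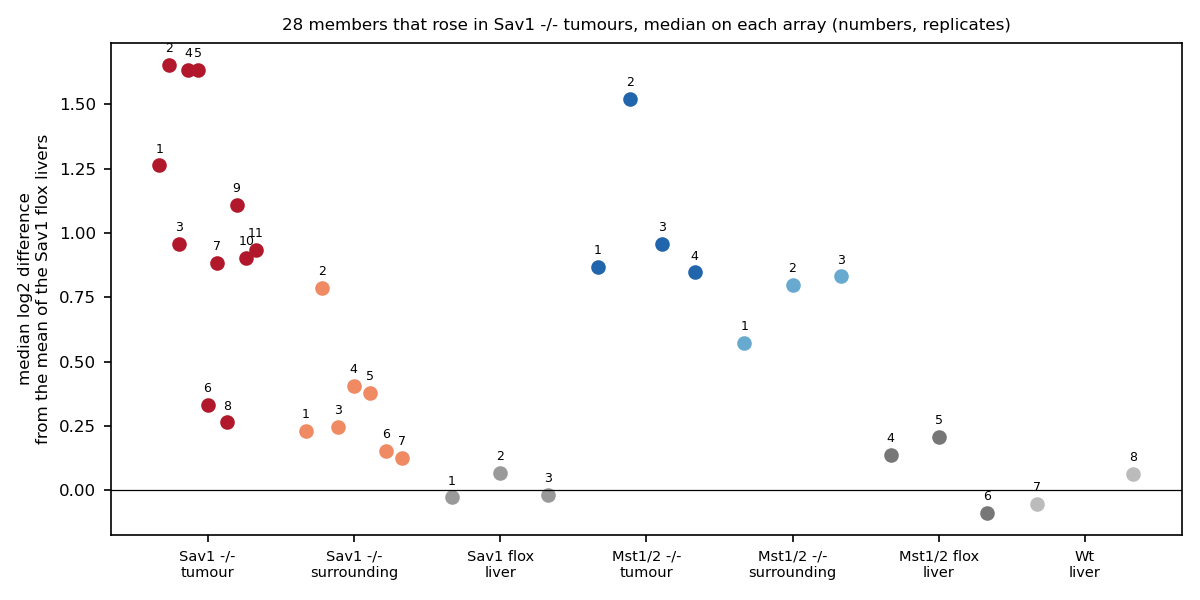
Median over the 28 members that rose in Sav1 -/- tumours of the log2 difference from the mean of the Sav1 flox livers, 1 point per array with its replicate number. Sav1 tumours 6 and 8 (0.33 and 0.26) lie among the Sav1 surrounding livers, and the Mst1/2 surrounding livers (0.57 to 0.83) end just below the Mst1/2 tumours (0.85 to 1.52).

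In the Mst1/2 line surrounding liver and tumour lay close together. Between Mst1/2 tumours and Mst1/2 surrounding livers 0 members passed in limma, with 1 (Ccne1) at an unadjusted p under 0.05, where 0.0286% of all genes rose and 0.0501% fell. The differences ran from -0.24 for Cdc20 to 0.69 for Mcm5 with a median SE of 0.32, and 32 of the 36 were higher. Mst1/2 surrounding livers against Mst1/2 flox livers gave 2 rises and 0 falls, where 2.65% of all genes rose and 1.37% fell, with 17 members at an unadjusted p under 0.05. Of the marker lists, 1 of 6 macrophage and 1 of 3 biliary markers rose there. Cdc20 stood at 8.85, 9.20 and 9.01 in surrounding livers, against 7.14, 7.30 and 6.38 in flox livers (2.08 ± 0.53, adjusted p = 0.0215). Prc1 stood at 9.02, 9.50 and 9.35 in surrounding livers, against 7.55, 7.53 and 6.40 in flox livers (2.13 ± 0.62, adjusted p = 0.0456). All 3 surrounding livers lay above all flox livers for both genes. The count was 0 without Mst1/2 flox liver 4 or 6 or surrounding liver 2 or 3, 1 without surrounding liver 1, 26 when only these 2 groups were fitted and 11 with the array set as a block. Shares of all genes in these alternative fits are not given here, so the counts show only how the calls shift.

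Between the lines, tumours differed in 1 member. In Sav1 tumours against Mst1/2 tumours Kif23 by its brightest probe fell (-1.48 ± 0.22, adjusted p = 0.000186) and 0 members rose, where 1.42% of all genes rose and 2.4% fell, with 5 members at an unadjusted p under 0.05. With the mean of its probes Kif23 did not pass (-0.49 ± 0.19, adjusted p = 0.141). Cdk4 was lower in Sav1 tumours by a difference of -0.83 ± 0.24 that did not pass (adjusted p = 0.05004), and Pcna higher by 1.07 ± 0.46 (adjusted p = 0.192). Prc1 averaged 9.54 ± 1.07 (SD, n = 11) in Sav1 tumours and 9.93 ± 0.47 (n = 4) in Mst1/2 tumours, within the spread of either group. Within array set B, which holds Sav1 tumours 6 to 11 and all Mst1/2 tumours, 8 members passed, and with the set as a block 10 did. The shares of all genes in those fits are not given here, so the counts show only how the members' calls shift.

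Sav1 surrounding livers against Mst1/2 surrounding livers gave 0 members in limma, with 9 at an unadjusted p under 0.05, where 0.479% of all genes rose and 0.472% fell. All 9 were lower in the Sav1 livers, among them Cdc20 (-1.46 ± 0.45, adjusted p = 0.119), Prc1 (-1.31 ± 0.52), Cdca3 (-1.13 ± 0.40) and Birc5 (-1.06 ± 0.38), and 33 of the 36 members were lower whether or not they passed. Cdc20 stood at 6.96, 7.48 and 8.44 (lowest, median, highest) in Sav1 surrounding livers, against 8.85, 9.20 and 9.01 in Mst1/2 surrounding livers, with no overlap. With the replicate number as a block, on the 3 livers of each line that share a number, 7 members fell, and on the same arrays without the block 2 did. With the array set as a block 19 passed, but these groups share no array set. Set B is tied to the other sets by the Sav1 tumours alone. That fit therefore takes any difference between the Sav1 tumours of the sets as a difference between sets. The shares of all genes in these block fits are not given here. Sav1 flox against Mst1/2 flox livers gave 0 members in limma and 2 at an unadjusted p under 0.05, where 1.28% of all genes rose and 2.17% fell. With the set as a block 4 members passed. There too the set adjustment rests on the Sav1 tumours, and the share of all genes is not given.

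The differences of differences were tested too. For tumour minus surrounding liver in Sav1 against Mst1/2, 0 members passed in limma and 4 had an unadjusted p under 0.05, where 0.0215% of all genes rose and 0.0644% fell. The median over members was 0.28, and the ends of the range were Kif23 at -1.17 and Cdc20 at 1.19. For tumour minus flox liver, a comparison added after the data were seen, 0 members passed and 4 had an unadjusted p under 0.05, where 0.622% of all genes rose and 0.486% fell. Those 4 were Pcna (1.75 ± 0.79), Kif23 (-1.27 ± 0.37), Cdk4 (-1.03 ± 0.42) and Mcm3 (-0.58 ± 0.25).

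**Figure D4:**
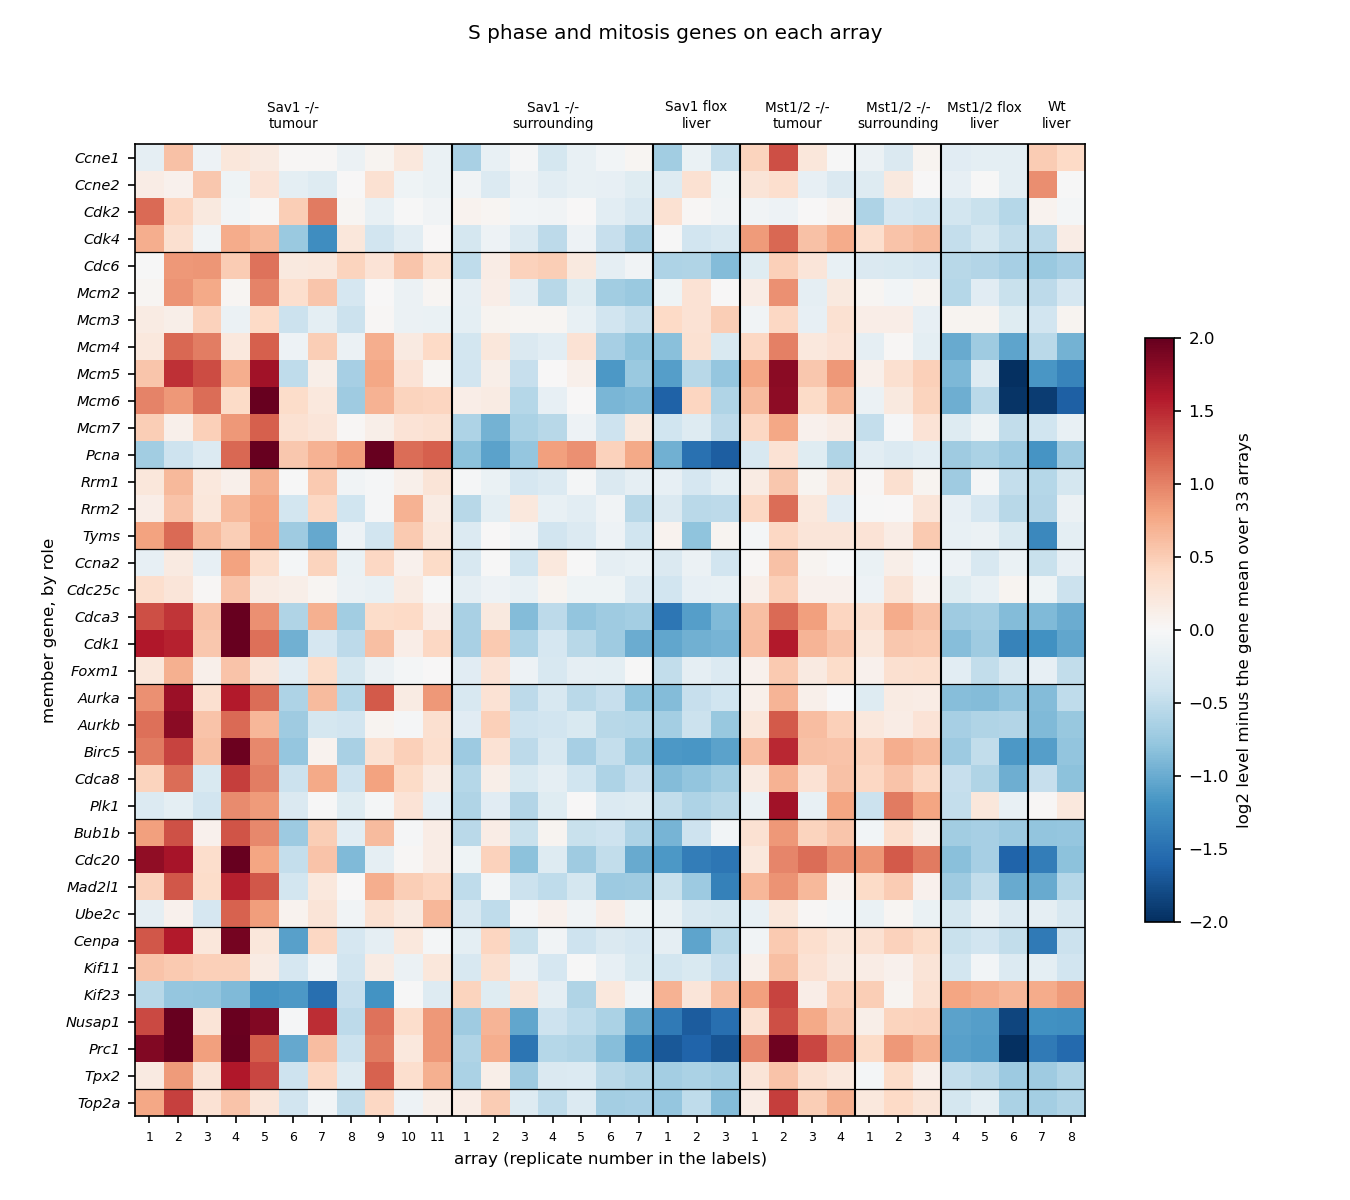
Log2 level of the 36 tested members on the 33 arrays, each gene as its difference from its own mean over all arrays, coloured from -2 (blue) to 2 (red) with values beyond these limits at the end colours. Tumours 2, 4 and 5 of the Sav1 line are the reddest columns, Sav1 tumours 6 and 8 are pale, and the Kif23 row runs against its neighbours.

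Cell cycle genes that are no members were read from a list of 109, of which 91 were tested. In Sav1 tumours against Sav1 flox livers 44 rose and 3 fell, where 17.3% of all genes rose and 16% fell. Their median difference was 0.40, against 0.05 for all genes. In Mst1/2 tumours against Mst1/2 flox livers 23 rose and 3 fell, where 11.4% of all genes rose and 9.04% fell. The median there was 0.33, against -0.0016 for all genes. Of the mitosis genes on it 26 of 47 rose and 1 fell in Sav1 tumours, of the replication genes 13 of 31 rose and 2 fell, and of the regulators 5 of 13 rose. The largest rise was Uhrf1, which keeps DNA methylation through replication, with means of 9.84 in Sav1 tumours and 6.82 in Sav1 flox livers (3.03 ± 0.40, adjusted p = 2.79e-06) and a rise of 2.69 ± 0.47 in Mst1/2 tumours. Lig1, the ligase that joins Okazaki fragments, rose by 1.91 ± 0.31 in Sav1 tumours and 2.15 ± 0.36 in Mst1/2 tumours. Cdkn3, a phosphatase of CDKs, rose at least 4.10-fold in Sav1 tumours, Pbk, a mitotic kinase, at least 2.58-fold, and Anln, anillin of the cleavage furrow, at least 2.36-fold.

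The 3 falls in Sav1 tumours were Mcm10, Bub3 and Dut, and those in Mst1/2 tumours were Mcm10, Spc24 and Cdc25b. Mcm10, which acts at the start of replication, averaged 9.86 in Sav1 tumours and 13.05 in Sav1 flox livers (-3.20 ± 0.56, adjusted p = 0.000102), and it fell by 2.53 ± 0.65 in Mst1/2 tumours. All 11 Sav1 tumours and all 3 flox livers were above background for it. These values come from its brightest probe alone, and whether another probe would give the same direction was not tested. For Kif23 the direction depended on the probe. Bub3, a checkpoint protein, fell by 0.70 ± 0.19 in Sav1 tumours (adjusted p = 0.00473) and Dut, which removes dUTP, by 0.68 ± 0.25 (adjusted p = 0.0375), and neither passed in Mst1/2 tumours (-0.05 ± 0.22 and -0.02 ± 0.29). Spc24, of the kinetochore, fell by 1.05 ± 0.24 in Mst1/2 tumours (adjusted p = 0.00285) and Cdc25b, a phosphatase of CDKs, by 0.33 ± 0.12 (adjusted p = 0.0495), and neither passed in Sav1 tumours (0.30 ± 0.21 and -0.06 ± 0.10).

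Other cell types moved with the same comparisons. In Sav1 tumours against flox livers 4 of 6 macrophage markers rose and 1 fell, and 2 of 3 neutrophil markers, 3 of 6 T and NK cell markers, 1 of 3 biliary markers and the leukocyte gene Ptprc rose. The macrophage sums ran from 7900 to 40254 units in Sav1 tumours and 3564 to 6182 in Sav1 flox livers, and from 17888 to 22214 in Mst1/2 tumours and 6201 to 6784 in Mst1/2 flox livers. Biliary sums ran from 970 to 22330 units in Sav1 tumours and 717 to 1044 in Sav1 flox livers, and from 5252 to 10804 in Mst1/2 tumours and 785 to 994 in Mst1/2 flox livers. In Mst1/2 tumours against flox livers 3 of 6 macrophage, 2 of 3 neutrophil, 2 of 3 biliary and 1 of 6 stellate and fibroblast markers rose, and 1 hepatocyte and 1 endothelial marker fell. The B and plasma cell sums were 239.5 to 426 units in Sav1 tumours and 232 to 279.7 in Sav1 flox livers, with 0 of 3 markers passed and Ms4a1 above background on no array of either group. The erythroid precursor markers Alas2 and Hba-a1 summed to 8282 to 39376 units in Sav1 tumours and 12805 to 24829 in Sav1 flox livers, and 1 of the pair fell. Of 6 stellate and fibroblast markers 2 rose and 1 fell, of 4 endothelial markers 1 fell, and 0 of 6 hepatocyte markers passed in limma. What share these cells had in the rises was not tested. In Sav1 tumours against surrounding livers, where 17 members rose, 0 macrophage, neutrophil or T and NK cell markers rose in limma, and 2 macrophage, 2 stellate and fibroblast, 1 endothelial and 1 hepatocyte marker fell. Biliary markers ran from 970 to 22330 units in Sav1 tumours and 1368 to 4525 in Sav1 surrounding livers, and 1 of 3 tested rose.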

How the data were processed

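Total RNA was hybridised to 1 bead array per sample, per the labels' protocols. The authors deposited linear probe intensity values from BeadStudio, per the submitters' processing notes, with no detection p-values, and a matrix of log2 values, which differed by at most 0.0050 from their own signals after quantile normalization alone (median 6.57, no centring). The deposited signals were corrected with normexp (offset 50), quantile normalized and taken to log2 in limma 3.58.1 (R 4.3.3). Background ended at the 99th percentile of the lower signals mirrored about each array's mode (80.9 to 109 units), and a gene was tested where its probe was above it on at least 3 arrays. The probe with the highest mean in the authors' log2 matrix stood for a gene. Of the 45281 probes, 34885 had 1 symbol, 18 several and 10378 none, and 34807 symbols were matched to GRCm38.p6 through Entrez identifiers, 0 of them renamed.

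All comparisons came from a single model of 7 group means on 33 arrays (lmFit, eBayes, two-sided, Benjamini-Hochberg over 13978 genes). Where a gene was above background on no array of the lower group, a fold is a bound against the higher of each array's lowest level above background and the probe's own level. No 2 arrays were duplicates (highest correlation 0.993). The members, lists and tests were chosen with earlier results of these data known. Named were the 2 members of each role with the largest difference in Sav1 tumours against Sav1 flox livers, any that passed against the majority, and the 5 largest rises and falls of the other cell cycle genes. Further values were chosen after they were seen. Same-numbered arrays of the surrounding livers of the 2 lines deviated together with correlations of 0.18 to 0.34 in 3 pairs. No label links these livers, and their genotypes differ, so they are not the same animals. Between Sav1 tumours and Sav1 surrounding livers the correlations were 0.07 to 0.69 in 7 pairs, the own number highest in 4. No label says whether such a tumour and liver share an animal. In every other comparison with shared numbers the lowest correlation was negative. The model of 7 group means ignored the numbers, and the replicate block was fitted as an alternative. Steps were tested on simulated data. Alternatives were the authors' matrix, median scaling, other filters, the mean of probes, fewer samples, blocks, array weights and leaving out each array. Figures were drawn with matplotlib 3.10.9.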

Additional observations from a re-analysis of the deposited data

Results flagged for a closer look

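Of 72 groups of levels tested for a single array far from the rest, 11 held one, where chance gives about 1 in 20. The 72 do not cover all 7 groups for the 36 members. A group not named below is therefore not shown to be free of such arrays. In the Mst1/2 tumours it was tumour 2 each time, which stood at 8.11 for Aurka, 9.12 for Birc5, 6.89 for Ccna2, 6.86 for Cdc25c and 9.26 for Cdk1, against next highest values of 7.53, 8.23, 6.36, 6.49 and 8.35. In the Sav1 surrounding livers it was liver 2 each time, at 7.45 for Aurkb, 7.91 for Birc5, 8.50 for Cdca3, 10.41 for Cenpa, 8.71 for Nusap1 and 9.37 for Prc1, against next highest values of 6.76, 7.30, 7.79, 9.90, 7.62 and 8.06. All 11 were high values. These genes share their arrays, so the 11 are not independent of each other.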

How the results depend on the processing

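Counts are of the 36 members unless a setting tests fewer. The share of all genes that passed in each alternative setting is not given here, so these counts show only how the members' calls shift. In Sav1 tumours against Sav1 flox livers 30 passed, and 11 of the 28 rises held in all 23 alternatives other than the replicate block and the fits within a set. The count was 16 with only these groups fitted, 19 within set A, 2 with the replicate block and 12 on the same arrays without it, and 18 to 30 when 1 array was left out. For Sav1 surrounding against flox livers (2 in the report) it was 1 with median scaling, 0 with the replicate block or without it on the same arrays, with the set block and within set A, and 0 to 2 with 1 array left out. For Sav1 tumours against surrounding livers (18) it was 11 with only these groups and 30 with the set block, which rests on the tumours of sets A and C. It was 1 within set A, 22 with the replicate block and 12 on the same arrays without it, and 14 to 21 with 1 array left out. For Mst1/2 tumours against flox livers (20) it was 10 to 20 with 1 array left out, and 9 of 20 rises held in all 16 such alternatives. For Mst1/2 surrounding against flox livers (2) it was 1 with the authors' matrix or without a filter on dim probes, 6 with median scaling, 4 with a stricter filter, 26 with only these groups, 11 with the set block, 13 against the mean of the 3 normal groups, 23 with array weights, and 0 to 2 with 1 array left out.

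For Mst1/2 tumours against surrounding livers (0) it was 2 with array weights. For Sav1 against Mst1/2 tumours (1) it was 2 with the authors' matrix or a stricter filter, 0 with the mean of probes, with the replicate block and without it on the same arrays, 10 with the set block, 8 within set B, 3 with array weights, and 1 to 2 with 1 array left out (2 without Sav1 tumour 1, 2, 4, 5 or 7). For Sav1 against Mst1/2 surrounding livers (0) it was 6 with only these groups, 7 with the replicate block, 2 on the same arrays without it, 19 with the set block and 17 with array weights. For the flox livers (0) it was 4 with the set block and 1 with array weights. Surrounding livers of the lines share no set, nor do flox livers, so the set block there rests on how the Sav1 tumours differ between sets. The tumour minus flox interaction (0) gave 3 with array weights and 0 to 1 with 1 array left out (1 without Mst1/2 tumour 3). With 1 array left out, the other 4 comparisons at 0 stayed at 0. Same-numbered arrays of Sav1 tumours and surrounding livers had correlations of 0.07 to 0.69, the own number highest in 4 of 7. Kif23 reversed with the mean of its probes, to 0.46, 0.17 and 1.05 in Sav1 tumours against flox livers, Sav1 tumours against surrounding livers and Mst1/2 tumours against flox livers. Of the named members' other values, 1124 kept direction and side of the threshold, 143 lost the call and 32 gained it. The cause of these shifts was not tested. The fits without the block on the same arrays and the tumour minus flox interaction were added after seeing the data. Dim members limit what can be read: 14 of 36 were above background on no Sav1 flox liver, the arrays on which the lowest level above background was highest.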
